A study of Sus scrofa with 16 samples.

Results

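The genes described here are 10 components of Toll-like receptor and endotoxin sensing, measured by RNA sequencing in the hippocampus of preterm pigs with and without necrotizing enterocolitis (NEC), a gut inflammation of preterm newborns. They were chosen by name, as the table rows whose Ensembl gene identifier maps to TLR2 (ENSSSCG00000009002), TLR3 (ENSSSCG00000015801), TLR4 (ENSSSCG00000005503), TLR7 (ENSSSCG00000012117), CD14 (ENSSSCG00000014369), LY96 (ENSSSCG00000006175), LBP (ENSSSCG00000028758), MYD88 (ENSSSCG00000011251), TICAM1 (ENSSSCG00000024771) or IRAK1 (ENSSSCG00000012795). All 10 were found, with 1 entry each, among 22815 entries of the table, and 8 of them had a mean of at least 0.5 FPKM (fragments per kilobase of transcript, scaled to the mapped fragments of the library) over the 16 pigs and entered the test across the table. TLR7 lay under that mean, and TICAM1 was listed at 0 in every pig.

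The pigs were crossbred, delivered preterm by caesarean section, fed human donor milk with parenteral nutrition, and killed after 8 days. NEC was scored by eye in the gut, and the groups were formed afterwards from those scores. The labels do not give the milk each pig received. The No NEC group (labelled noNEC, 5 pigs, 2 females and 3 males) had no lesions, the Co-NEC group (coNEC, 5 pigs, 2 females and 3 males) had severe lesions in the colon alone, and the Si-NEC group (siNEC, 6 pigs, 3 females and 3 males) had severe lesions of the small intestine, alone or together with the colon. Pigs with borderline scores had been left out by the study, so the groups are the ends of a range of severity, and the labels do not give the litter of a pig. Each sample was the whole left hippocampus of 1 pig, and a pig is named below by its number in the labels, which ends in 14 or 15.

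Endotoxin is the lipopolysaccharide of Gram-negative bacteria. LBP carries it in blood, CD14 takes it over at the cell surface, and the receptor TLR4 binds it together with the small protein LY96 (MD-2). TLR2 recognises bacterial lipoproteins, and TLR3 and TLR7 recognise double-stranded and single-stranded RNA inside endosomes. MYD88 is the adaptor used by nearly all Toll-like receptors and recruits the kinase IRAK1 towards NF-kB, while TICAM1 (TRIF) serves TLR3 and TLR4 and leads also to interferon genes. In the brain these receptors are known chiefly from microglia, the resident macrophages. In whole tissue, fewer cells of a type and less RNA per cell cannot be told apart.

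The FPKM of all entries summed to 544629 to 645197 in 14 of the pigs, while No NEC pig 230-15 reached 864931 and Si-NEC pig 223-15 reached 823320. Some of the results that rest on those pigs are also given without them. All 6 pigs with the suffix 14 were male and all 7 females had the suffix 15, so sex and whatever the suffix stands for cannot be told apart except in 3 males with the suffix 15, 1 in each group. The labelled tissue carried its markers: the 4 hippocampal excitatory neuron markers found summed to 185 to 442 FPKM over the pigs, and the 8 microglial markers found, of 14 listed, to 74.0 to 208 FPKM. The 2 pigs with the high FPKM sums were the lowest for the neuron markers, at 185 (pig 230-15) and 244 (pig 223-15), against 331 to 442 in the others. They were the highest for the microglial markers, at 188 and 208, against 74.0 to 127 in the others. Whether their tissue differed in composition was not tested. The numbers of reads were not in the table, so sequencing depth is unknown.

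The members spanned a wide range of levels on the per-length FPKM scale. IRAK1 was the highest, at 11.8 ± 1.90 (mean ± SD, n = 16), followed by CD14 at 10.4 ± 4.73 and MYD88 at 4.84 ± 0.772. LY96 stood at 2.67 ± 1.36 and TLR4 at 1.63 ± 0.714. TLR3 (1.09 ± 0.487), LBP (0.942 ± 0.278) and TLR2 (0.937 ± 0.536) lay close together, and TLR7 was the lowest member above 0, at 0.285 ± 0.145. CD14 was above MYD88 in 16 of 16 pigs, MYD88 above LY96 in 15, LY96 above TLR4 in 15 and TLR2 above TLR7 in 16. The order of neighbours was less regular elsewhere, with IRAK1 above CD14 in 11 of 16 pigs, TLR4 above TLR3 in 12, TLR3 above LBP in 7 and LBP above TLR2 in 8, so TLR3, LBP and TLR2 could not be ordered beyond the spread between pigs.

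**Figure D1:**
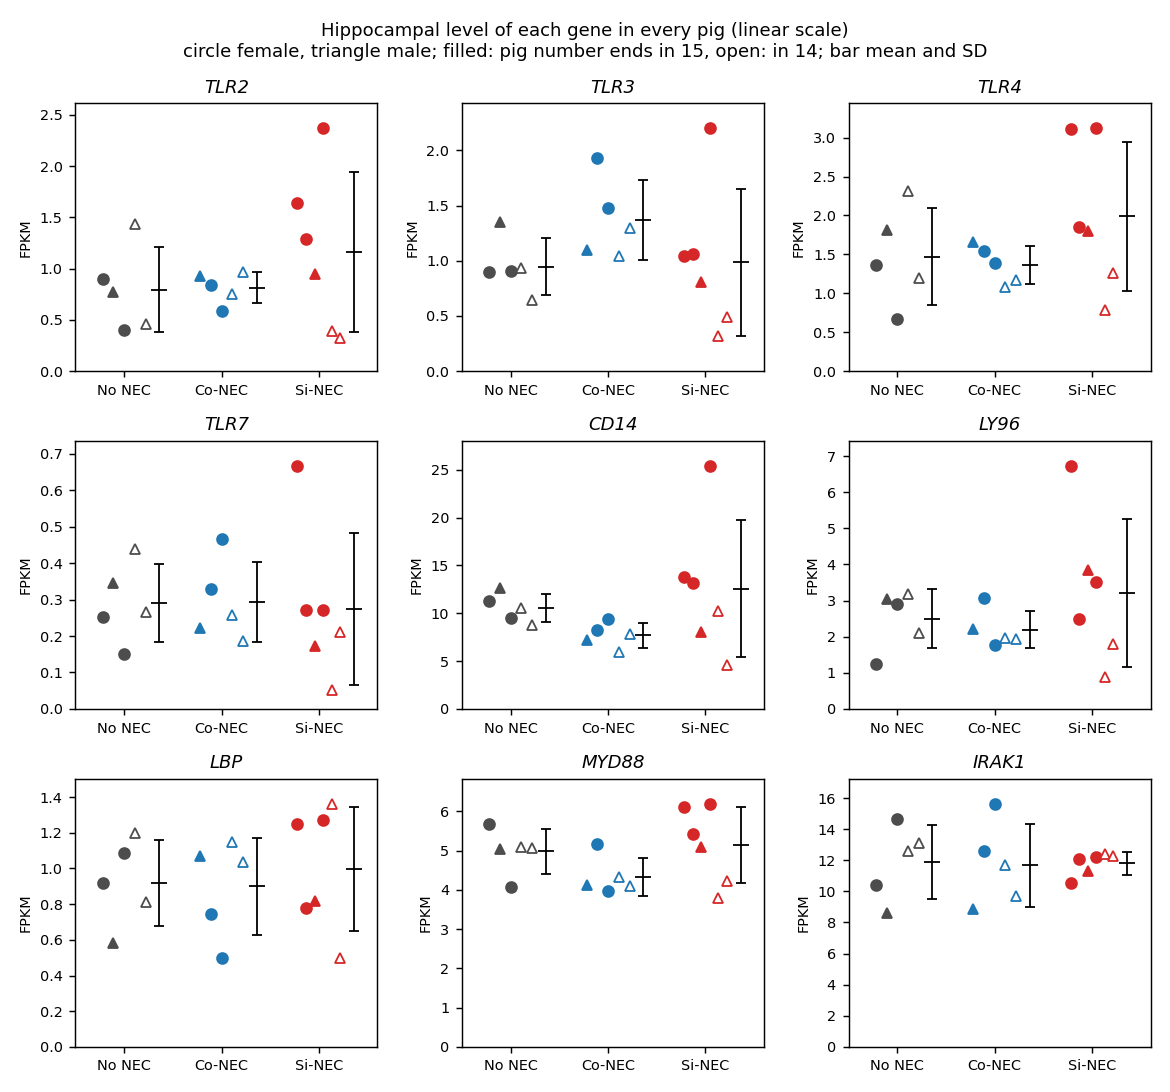
FPKM on linear axes from 0, by group, for the 9 members above 0; each symbol is 1 pig (circles female, triangles male, filled symbols suffix 15, open symbols suffix 14) and the bar at the right of each group is the mean and SD. The Si-NEC pigs span the widest range for most genes, with CD14 from 4.64 to 25.4 FPKM, and 4 of the 5 Co-NEC pigs lie under every No NEC pig for CD14.

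CD14, which hands endotoxin to TLR4, was lower in Co-NEC than in No NEC pigs and had the smallest p of the tested members in that comparison. Its FPKM was 5.91, 7.16, 7.83, 8.23 and 9.44 in the Co-NEC pigs and 8.77, 9.52, 10.5, 11.3 and 12.6 in the No NEC pigs. The groups overlapped only through Co-NEC pig 255-15 (9.44), which lay above No NEC pig 550-14 (8.77). The means were 7.72 ± 1.31 (SD, n = 5) and 10.5 ± 1.5 (n = 5), a ratio of 0.732. The limma log2 difference was −0.43 (SE 0.14, 95% interval −0.74 to −0.12), with an unadjusted p of 0.0110 and a Benjamini-Hochberg adjusted p of 0.812 over the 13590 entries tested, so it did not pass the threshold of 0.2. An exact two-sided permutation test on the log2 values gave p = 0.0159, where the smallest p that 5 against 5 pigs allow is 0.00794.

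The lower CD14 level of Co-NEC pigs was seen in each subset of pigs, but the subsets add no separate support. The only overlapping pigs, 255-15 (female, suffix 15) and 550-14 (male, suffix 14), differ in both sex and suffix. Separation within each sex and each suffix therefore follows from the values above. Among pigs with the suffix 15, the 3 Co-NEC pigs (7.16 to 9.44 FPKM) all lay under the 3 No NEC pigs (9.52 to 12.6 FPKM). Among pigs with the suffix 14, the 2 Co-NEC pigs (5.91 and 7.83 FPKM) lay under the 2 No NEC pigs (8.77 and 10.5 FPKM). That pattern, Co-NEC under No NEC within both suffixes, held for 0.581% of the entries tested. The same separation was present in females and in males. Without pig 230-15, the No NEC pig with the high FPKM sum, the log2 difference was −0.37, and leaving out each pig in turn gave −0.50 to −0.35 with unadjusted p of 0.00505 to 0.0291. When all 3 groups shared one estimate of the spread, which then included the wide Si-NEC group, the difference was the same but its unadjusted p was 0.169.

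In the Si-NEC pigs, by contrast, CD14 was spread out. The lowest value was 4.64 FPKM (pig 547-14), the median 11.7 and the highest 25.4 (pig 246-15), a 5.48-fold range, against 1.44-fold in No NEC and 1.60-fold in Co-NEC pigs. Of the 6 Si-NEC pigs, 3 lay above every No NEC pig (13.2, 13.8 and 25.4 FPKM), and Si-NEC thus held both the highest and the lowest CD14 of the study. The mean was 12.6 ± 7.15 (n = 6), 1.19 times that of No NEC, and the log2 difference was 0.08 (SE 0.33, 95% interval −0.63 to 0.79). By qPCR in a larger set of pigs, the study reported CD14 as upregulated in Si-NEC. Against Co-NEC the log2 difference was 0.51 (SE 0.32, limma adjusted p = 0.867), with 4 of 6 Si-NEC pigs above every Co-NEC pig. The 3 comparisons share pigs, since each group enters 2 of them.

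LY96, the partner of TLR4 in binding endotoxin, showed the same broad Si-NEC range without a difference in means beyond the spread. It was 1.25, 2.11, 2.92, 3.05 and 3.18 FPKM in No NEC pigs and 1.77, 1.94, 1.97, 2.22 and 3.08 in Co-NEC pigs. In Si-NEC pigs it ran from 0.872 (pig 539-14) over a median of 3.0 to 6.74 (pig 223-15), a 7.72-fold range that took in all of the other pigs. The log2 difference of Si-NEC to No NEC was 0.17 (SE 0.37) and that of Co-NEC to No NEC −0.12 (SE 0.22).

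LBP, the carrier of endotoxin in blood, differed little between the groups. Its mean was 0.919 ± 0.241 FPKM in No NEC, 0.899 ± 0.271 in Co-NEC and 0.997 ± 0.346 in Si-NEC pigs. Its ranges were 0.580 to 1.20, 0.498 to 1.15 and 0.50 to 1.36 FPKM, so they overlapped almost completely. The intervals of its log2 differences reached from −0.37 to 0.48 for Si-NEC against No NEC and from −0.43 to 0.37 for Co-NEC against No NEC.

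TLR4, the endotoxin receptor, had the largest positive log2 difference of Si-NEC to No NEC among the 8 tested members, but within the spread. It was 0.663, 1.20, 1.36, 1.81 and 2.32 FPKM in No NEC pigs and 1.08, 1.16, 1.40, 1.54 and 1.66 in Co-NEC pigs. In Si-NEC pigs it ran from 0.786 (pig 539-14) over a median of 1.82 to 3.13 (pig 246-15), and pig 223-15 stood beside the highest at 3.12. Only those 2 Si-NEC pigs lay above every No NEC pig. The mean was 1.35 times that of No NEC, with a log2 difference of 0.31 (SE 0.30, 95% interval −0.35 to 0.96, exact permutation p = 0.379). Against Co-NEC the log2 difference was 0.33 (SE 0.25), with 4 of 6 Si-NEC pigs above every Co-NEC pig. The study also measured TLR4 by qPCR, and its text did not list it among the genes upregulated in Si-NEC.

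TLR2, the lipoprotein receptor, had a similar layout. Its level was 0.403, 0.464, 0.772, 0.895 and 1.43 FPKM in No NEC pigs, and the Co-NEC pigs were close together, at 0.586, 0.750, 0.840, 0.924 and 0.964. The Si-NEC pigs ran from 0.323 (pig 547-14) over a median of 1.11 to 2.38 (pig 246-15), a 7.35-fold range, and again held both extremes of the study. The log2 difference of Si-NEC to No NEC was 0.28 (SE 0.34) and of Co-NEC to No NEC 0.07 (SE 0.21).

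TLR3, the receptor for double-stranded RNA, ordered the groups in another way, with the Co-NEC pigs the highest. Its level was 1.04, 1.09, 1.30, 1.48 and 1.93 FPKM in Co-NEC pigs and 0.642, 0.900, 0.904, 0.934 and 1.36 in No NEC pigs. Without No NEC pig 230-15 (1.36) the 2 groups would not have overlapped, and the log2 difference was 0.46. The share of all entries that separate without that pig was not counted. The means were 1.37 ± 0.360 and 0.947 ± 0.257 (n = 5 each), a ratio of 1.44, and the log2 difference was 0.37 (SE 0.17, 95% interval −0.01 to 0.74). Its unadjusted p was 0.0565, its limma adjusted p 0.812 and its exact permutation p 0.0556. In Si-NEC pigs TLR3 ran from 0.317 (pig 539-14) over a median of 0.925 to 2.21 (pig 246-15), and the log2 difference to Co-NEC was −0.42 (SE 0.27, adjusted p = 0.867). Among males alone, the 3 Si-NEC pigs (0.317, 0.486 and 0.804 FPKM) all lay under the 3 Co-NEC pigs (1.04, 1.09 and 1.30 FPKM), a log2 difference of −0.69 with a limma adjusted p of 0.167. That passed the threshold of 0.2, but in the same comparison of males 15.2% of all entries did.

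TLR7, the receptor for single-stranded RNA, was low everywhere, at 0.291 ± 0.108 FPKM in No NEC, 0.292 ± 0.110 in Co-NEC and 0.274 ± 0.209 in Si-NEC pigs. Exact permutation tests gave p = 0.766 for Si-NEC against No NEC and p = 0.984 for Co-NEC against No NEC. The highest value was 0.667 in Si-NEC pig 223-15 and the lowest 0.0514 in Si-NEC pig 539-14. Within the sexes it was ordered in opposite ways, with the Si-NEC and Co-NEC females above both No NEC females and the Si-NEC and Co-NEC males under all No NEC males, a layout seen in 2.97% of the entries above 0 for Si-NEC and in 1.64% for Co-NEC.

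MYD88, the shared adaptor, had closely spaced values. It was 4.08, 5.04, 5.06, 5.09 and 5.67 FPKM in No NEC pigs and 3.97, 4.10, 4.12, 4.32 and 5.17 in Co-NEC pigs, so that 4 of the 5 Co-NEC pigs, all but pig 231-15, lay under 4 of the 5 No NEC pigs. The log2 difference of Co-NEC to No NEC was −0.18 (SE 0.12, adjusted p = 0.812), with all 3 Co-NEC males under all 3 No NEC males, a pattern of 9.29% of the entries. The Si-NEC pigs ran from 3.80 over a median of 5.26 to 6.20 FPKM, with log2 differences of 0.03 (SE 0.14) to No NEC and 0.21 (SE 0.13) to Co-NEC.

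IRAK1, the kinase below MYD88, had means close to each other, 11.9 ± 2.38 FPKM in No NEC, 11.7 ± 2.66 in Co-NEC and 11.8 ± 0.736 in Si-NEC pigs. The log2 difference of Si-NEC to No NEC was 0.01, with a 95% interval of −0.28 to 0.30. It was the exception in spread: the Si-NEC pigs ran only from 10.5 to 12.4 FPKM, inside the ranges of the other groups. TICAM1, the adaptor of TLR3, was listed at 0 in all 16 pigs. An exact 0 in an FPKM table can be a failed estimate for that gene model, so no level is drawn from it.

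Over the 8 tested members together, none passed an adjusted p of 0.2 in any of the 3 comparisons, where 0.00736% of all entries did between Si-NEC and No NEC, the same 0.00736% between Co-NEC and No NEC, and 0.0147% between both NEC groups. At an unadjusted p under 0.05, the counts were 0, 1 (CD14) and 0 of 8, against 2.61%, 3.44% and 5.64% of all entries. In Si-NEC against No NEC 7 of 8 log2 differences were above 0 (53.8% of all entries), in Co-NEC against No NEC 6 of 8 were under 0 (48.0% of entries), and in Si-NEC against Co-NEC 7 of 8 were above 0 (50.1% of entries). The members' median log2 differences were 0.07, −0.03 and 0.21, beside 0.02, 0.01 and 0.00 over all entries. The p-values measure the spread between these pigs. The SEs of the log2 differences ran from 0.13 to 0.37 for Si-NEC against No NEC and from 0.12 to 0.22 for Co-NEC against No NEC.

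**Figure D2:**
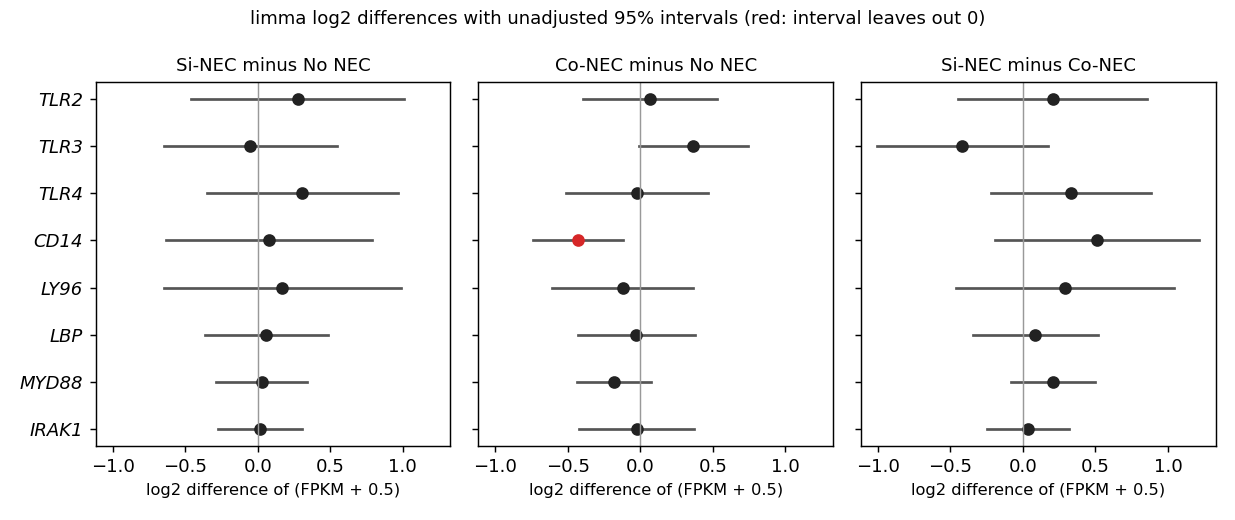
limma log2 differences of FPKM + 0.5 for the 8 tested members in the 3 comparisons, with unadjusted 95% intervals; red marks an interval that leaves out 0. CD14 in Co-NEC against No NEC (−0.43) is the only red point, and the intervals of both Si-NEC comparisons are the widest for TLR2, TLR3, TLR4, CD14 and LY96.

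The Si-NEC pigs were more spread out than the others for most members. The SD on the log2 scale of the Si-NEC pigs exceeded that of the No NEC pigs for 7 of 8 members (all but IRAK1), where 37.3% of all entries had this direction. The median ratio of the SDs was 1.63 for the members and 0.853 over all entries. Against Co-NEC the SD was larger in Si-NEC for 7 of 8 members, where 76.4% of all entries had this direction. These are descriptions, with no test of the spread.

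Some pigs stood at the ends of the range for several genes. Si-NEC pig 246-15 ranked first of 16 for TLR2, TLR3, TLR4, CD14 and MYD88, and its median rank over the 8 members was 1. Si-NEC pig 223-15 ranked second for TLR2, TLR4, CD14 and MYD88 and first for LY96. At the other end, Si-NEC pig 539-14 was the lowest for TLR3, LY96 and MYD88, with a median rank of 15, although it was the highest of all pigs for LBP (1.36 FPKM) and ranked 7 for CD14 and 6 for IRAK1, and Si-NEC pig 547-14 the lowest for TLR2 and CD14, with a median rank of 14. Pigs 246-15 and 223-15 were females with the suffix 15, and pigs 539-14 and 547-14 males with the suffix 14.

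Within females, every Si-NEC pig lay above both No NEC pigs for TLR2, TLR3, TLR4 and CD14, 4 of the 8 tested members, where 15.4% of all entries showed this. TLR4 was 1.85 to 3.13 FPKM in the 3 Si-NEC females against 0.663 and 1.36 in the 2 No NEC females. CD14 was 13.2 to 25.4 FPKM against 9.52 and 11.3, and TLR2 was 1.28 to 2.38 against 0.403 and 0.895. Among males the order was turned: TLR4 was 0.786 to 1.80 FPKM in Si-NEC against 1.20 to 2.32 in No NEC males, and CD14 was 4.64 to 10.3 against 8.77 to 12.6. Both Si-NEC pigs with the suffix 14 lay under both No NEC pigs with that suffix for TLR2, TLR3, LY96, MYD88 and IRAK1, 5 of 8 members, where 22.2% of all entries did.

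The difference between the sexes was tested as an interaction term in limma (the Si-NEC minus No NEC log2 difference in males minus that in females). It was −1.45 for TLR4 (SE 0.46), −1.37 for TLR2 (SE 0.50) and −1.16 for CD14 (SE 0.47), and each had a limma adjusted p of 0.439 across all entries, so none passed. Exact permutation of the group labels within each sex, a test added after the values were seen, gave p = 0.040, 0.040 and 0.030 for these genes. That permutation assumes no group difference in either sex, so it is not an exact test of equal differences in both sexes. The terms of LY96 (−1.29), TLR3 (−0.93) and MYD88 (−0.47) had the same sign, with exact permutation p of 0.14, 0.050 and 0.060. All members but IRAK1 (0.18) had a term under 0, 7 of 8 against 61.2% of all entries. In all, 3 of 8 members had an unadjusted p under 0.05, where 10.8% of all entries did. The members' median term was −1.04 against −0.17 over all entries. After rescaling each pig by the median of ratios, the median over all entries was −0.01 and that of the members −0.90, with 2 of 8 at an unadjusted p under 0.05. Sex and number suffix cannot be told apart in these terms: in the only male pair with the suffix 15, Si-NEC pig 226-15 against No NEC pig 230-15, the log2 differences were −0.01 for TLR4, 0.18 for TLR2 and −0.61 for CD14.

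For Co-NEC against No NEC, 0 of 8 interaction terms had an unadjusted p under 0.05, where 2.47% of entries did. For Si-NEC against Co-NEC the term was −1.31 for TLR2 (SE 0.39) and 0.51 for IRAK1 (SE 0.20), each with a limma adjusted p of 0.484 and with exact permutation p of 0.020 and 0.015. TLR2 was 1.28 to 2.38 FPKM in Si-NEC females against 0.586 and 0.840 in Co-NEC females, and 0.323 to 0.944 in Si-NEC males against 0.750 to 0.964 in Co-NEC males. The 0 entries that passed the adjusted threshold for Co-NEC against No NEC compare with 336 at an unadjusted p under 0.05 in the same limma fit.

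**Figure D3:**
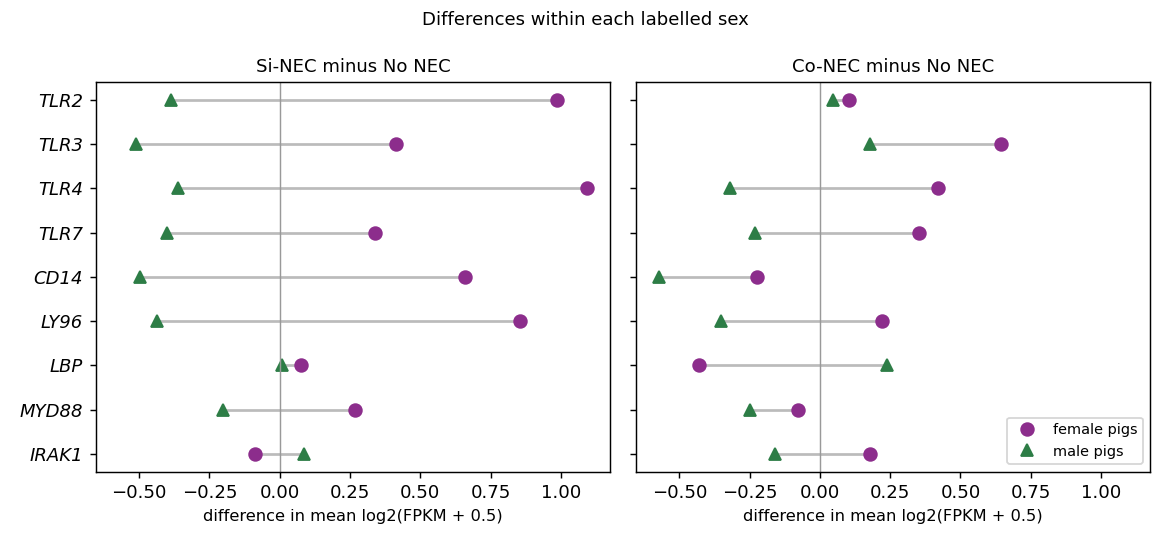
Difference in mean log2(FPKM + 0.5) for 9 members within females (circles) and within males (triangles), for Si-NEC minus No NEC at the left and Co-NEC minus No NEC at the right. At the left, females lie above 0 and males under 0 for TLR2, TLR3, TLR4, TLR7, CD14, LY96 and MYD88. At the right, CD14 lies under 0 in both sexes and TLR3 above 0 in both.

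Since these genes are known from microglia, the level of microglial markers was set beside them, a comparison added after the values were seen. The 8 markers found summed to 79.2 to 188 FPKM in No NEC, 84.7 to 125 in Co-NEC and 74.0 to 208 in Si-NEC pigs, and none of them was at 0. Their mean log2 level differed by 0.01 between Co-NEC and No NEC (exact permutation p = 0.968) and by −0.07 between Si-NEC and No NEC (p = 0.786). Si-NEC pigs 539-14 and 547-14 had the lowest marker levels of all pigs (3.02 each on the mean log2 scale) and pig 223-15 the highest (4.33), while pig 246-15, with the highest CD14, had 3.38.

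Relative to the microglial markers, CD14 was lower in every Co-NEC pig than in every No NEC pig. The log2 difference was −0.44, and its exact permutation p of 0.00794 is the smallest that 5 against 5 pigs can give. After the same subtraction, 0.0662% of all entries had Co-NEC and No NEC pigs without overlap. TLR3 relative to the markers was 0.35 higher on the log2 scale in Co-NEC pigs (exact permutation p = 0.0397). TLR4 relative to the markers in Si-NEC pigs was 0.41 higher than in Co-NEC pigs (exact permutation p = 0.0411) and 0.38 higher than in No NEC pigs (p = 0.0844). These are 3 of the 24 such member tests that had an unadjusted p under 0.05.

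**Figure D4:**
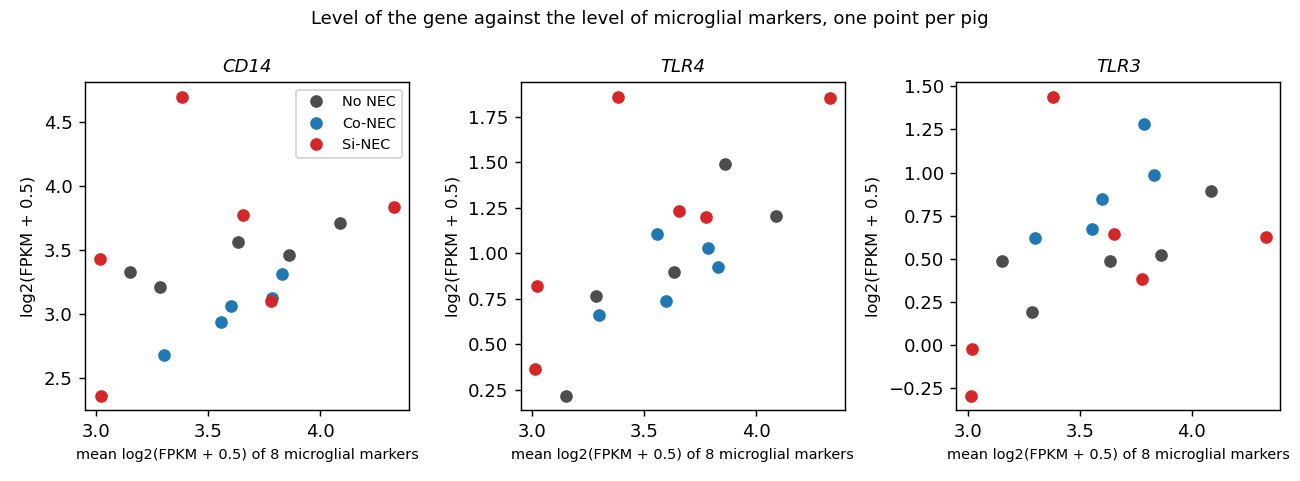
log2(FPKM + 0.5) of CD14, TLR4 and TLR3 against the mean log2(FPKM + 0.5) of 8 microglial markers, 1 point per pig. At a given marker level the 5 Co-NEC pigs lie under the 5 No NEC pigs for CD14, and Si-NEC pig 246-15 lies far above the others for CD14 at a marker level of 3.38.

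CD14 is also carried by monocytes and neutrophils. Of 11 neutrophil markers listed, 7 were found, and their sum was 1.13 to 3.64 FPKM in No NEC, 1.11 to 2.97 in Co-NEC and 2.78 to 26.7 in Si-NEC pigs. Most of the Si-NEC sum was S100A8, since the 6 other markers summed to 0.366 to 1.38, 0.373 to 0.765 and 0.304 to 1.70 FPKM. Among those 6, the Si-NEC mean was above the No NEC mean for MMP8 (0.0820 against 0 FPKM) and MMP9 (0.132 against 0.00799). The same held for LTF (0.403 against 0.163) and ELANE (0.242 against 0.191), while MPO was lower (0.169 against 0.378). CSF3R, the receptor for the neutrophil growth factor G-CSF, was listed at 0 in every pig. Such a 0 can be a failed estimate, so no level is drawn from it. The 4 border macrophage and monocyte markers found, of 6, summed to 1.18 to 3.78, 1.80 to 2.62 and 1.26 to 4.34 FPKM. The part of such cells in the CD14 levels was not tested.

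The other genes of the pathway were taken from lists of 81 genes, of which 56 were found and 48 tested, as 50 entries. None passed the adjusted threshold in any comparison. For Si-NEC against No NEC 34 entries were higher and 16 lower, where 53.8% of all entries were higher. At an unadjusted p under 0.05, 3 of 50 were higher, where 1.59% of all entries were. For Co-NEC against No NEC 20 were higher and 30 lower, where 48.0% of all entries were lower. At that level 1 was lower, where 1.32% of entries were. For Si-NEC against Co-NEC 38 were higher and 12 lower, where 50.1% of all entries were higher. At that level 5 were higher, where 3.25% of entries were. CXCL2 and CXCL8 entered the test only through the Si-NEC pigs, so the filter set their direction in the counts of both Si-NEC comparisons. CXCL2 was also counted at an unadjusted p under 0.05 in both. The lists were chosen with earlier results of these data known, so the shares are descriptions.

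Among endogenous ligands, S100A8, a calcium-binding alarmin of neutrophils and macrophages that acts on TLR4, had the lowest p. It was 0.764 to 3.08 FPKM in No NEC and 0.734 to 2.31 in Co-NEC pigs, and 2.21, 4.93, 7.11, 14.8, 21.2 and 25 in Si-NEC pigs, so that 5 of 6 Si-NEC pigs lay above all others and only pig 547-14 (2.21) lay within their range. The log2 difference was 2.24 to No NEC (SE 0.55, limma adjusted p = 1, exact permutation p = 0.00866) and 2.47 to Co-NEC (SE 0.53, limma adjusted p = 0.634, exact permutation p = 0.00649). Its partner S100A9 was not found by symbol. The study reported S100A8 as upregulated in Si-NEC by its own RNA-seq test and by qPCR, and S100A9 by qPCR.

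Genes known as outputs of MYD88 and NF-kB were higher in Si-NEC pigs for 7 of 7 tested entries in both comparisons, where 53.8% and 50.1% of all entries were. Their median log2 difference was 0.44 to No NEC and 0.71 to Co-NEC, beside 0.02 and 0.00 over all entries. CXCL2 and CXCL8 averaged 0.121 and 0.0731 FPKM in No NEC and 0.203 and 0.0664 in Co-NEC pigs. They entered the test only through the Si-NEC pigs, so the filter set their direction. The 7 of 7 and the medians include them, and the p-values of CXCL2 are descriptions. CXCL2, a neutrophil chemokine, was 0 to 0.266 FPKM in No NEC pigs and 0.219 to 7.54 in Si-NEC pigs, 5 of which lay above every No NEC pig (log2 difference 1.34, SE 0.53, limma adjusted p = 1, exact permutation p = 0.0152). BCL3, an NF-kB partner, was 1.55 ± 0.948 FPKM in Si-NEC against 0.691 ± 0.309 in Co-NEC pigs (log2 difference 0.71, SE 0.29, limma adjusted p = 0.867, exact permutation p = 0.0519). In these data the high values of the chemokines CCL2 and CXCL8 came from 1 pig. CCL2 was 70.9 FPKM in Si-NEC pig 246-15 and at most 4.82 elsewhere. CXCL8 was 7.82 in that pig and at most 0.686 elsewhere. The study reported IL8 (CXCL8) as upregulated in Si-NEC by qPCR in a larger set of pigs. It also listed CCL2 among the genes that differed between Si-NEC and No NEC in its own RNA-seq test. The cytokine IL6, another such output, was listed at 0 in every pig, which can be a failed estimate, so no level is drawn from it. By qPCR of the hippocampus, the study reported IL6 as upregulated in Co-NEC pigs. NFKBIA, the inhibitor of NF-kB that NF-kB itself induces, was 19.3 ± 8.0 FPKM in Si-NEC, 12.6 ± 1.81 in Co-NEC and 14.7 ± 4.07 in No NEC pigs (log2 difference to Co-NEC 0.51, SE 0.24, exact permutation p = 0.0996). Outputs of TICAM1 and IRF3 had 4 of 5 entries higher in Si-NEC against No NEC by mean log2 level, where 53.8% of all entries were, with a median of 0.04. The median Si-NEC pig was lower than the median No NEC pig for IFIT2 (1.28 against 1.65 FPKM), RSAD2 (0.137 against 0.406) and MX1 (28.6 against 32.3). The highest Si-NEC values of these genes were 13.4, 11.1 and 229 FPKM. For CCL5 the medians were 28.1 and 28.1, and for IRF1 3.79 and 3.59.

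Among negative regulators, SIGIRR, a receptor that dampens Toll-like receptor signalling, was 2.22 to 2.70 FPKM in Co-NEC and 2.98 to 7.59 in No NEC pigs, with no overlap, where 0.464% of entries did not overlap. Its log2 difference was −0.55 (SE 0.21, limma adjusted p = 0.812, exact permutation p = 0.00794), and the highest value, 7.59, was that of pig 230-15. The other No NEC pigs were at 2.98 to 3.47 FPKM, and the log2 difference without pig 230-15 is not given. TNIP1, which restrains NF-kB, was 22.8 ± 2.33 FPKM in Si-NEC against 18.7 ± 1.67 in Co-NEC pigs (log2 difference 0.28, SE 0.09, adjusted p = 0.851), with 5 of 6 Si-NEC pigs above every Co-NEC pig. The transcription factors downstream had all 8 entries, from 7 genes, above 0 for Si-NEC against Co-NEC, where 50.1% of all entries were, with a median of 0.27. Among them, the second entry of NFKB1 ran from 0 to 158 FPKM in Co-NEC and from 0 to 156 in Si-NEC pigs, so its sign is uncertain. The first entry of NFKB1, an NF-kB subunit, was 6.42 ± 2.29 FPKM in Si-NEC and 3.79 ± 1.15 in No NEC pigs (log2 difference 0.67, SE 0.24, limma adjusted p = 1, exact permutation p = 0.0325), and since this gene has 2 entries with different values its level is uncertain. The other Toll-like receptors tested, TLR1, TLR5 and TLR9, had log2 differences of −0.16, −0.01 and 0.09 for Si-NEC against No NEC.

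**Figure D5:**
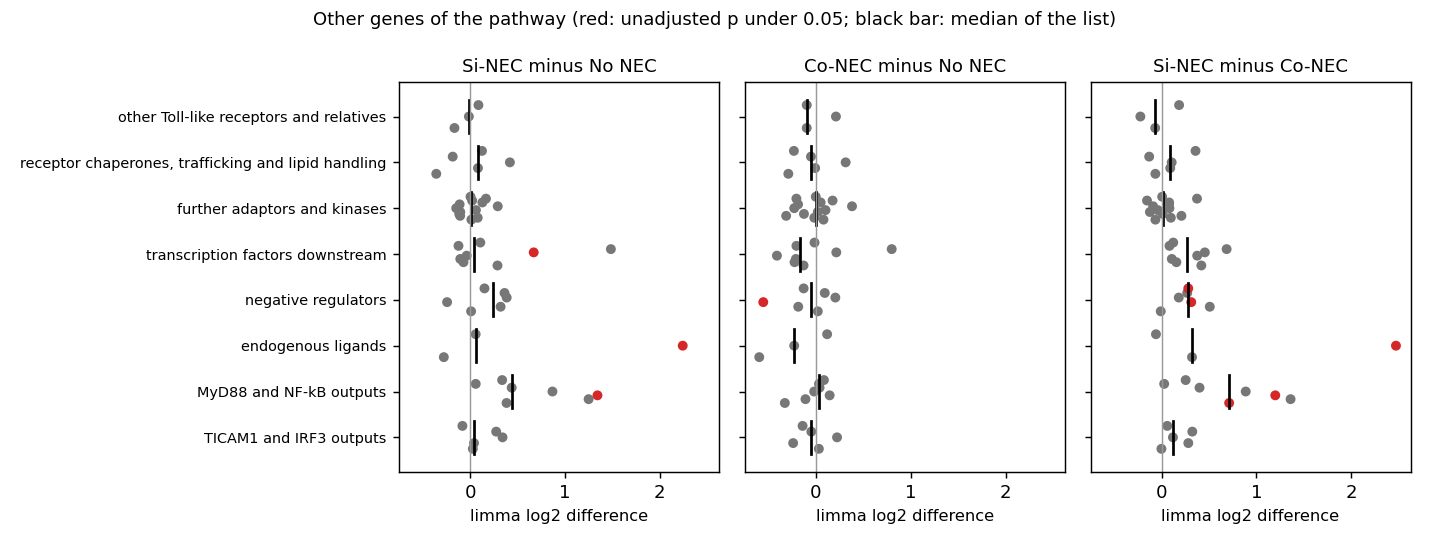
limma log2 differences of the other pathway genes by list, 1 point per table entry, in the 3 comparisons; red marks an unadjusted p under 0.05 and the black bar is the median of the list. The MyD88 and NF-kB outputs lie above 0 for all 7 entries in both Si-NEC comparisons, but CXCL2 and CXCL8 among them entered the test only through the Si-NEC pigs. The red point far at the right is S100A8 (2.24 and 2.47).

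CD14 varied together with some other members from pig to pig. Over the 16 pigs Pearson's r on the log2 scale was 0.697 with TLR2, 0.662 with MYD88 and 0.593 with TLR4 (permutation p adjusted over 6 relations 0.010, 0.010 and 0.0231), and 0.644 with S100A8 (0.0119). With LY96 and LBP it was 0.360 and 0.342, with adjusted permutation p of 0.197 for both. Spearman's rho was 0.497, 0.538, 0.576 and 0.474 for TLR2, MYD88, TLR4 and S100A8, and its adjusted permutation p was 0.0988 for each, so the rank relation did not pass 0.05. Without pigs 246-15 and 547-14, the farthest from the median of CD14, r was 0.335, 0.552, 0.445 and 0.549, with adjusted permutation p of 0.358, 0.126, 0.225 and 0.126, so none of the relations passed 0.05 without them. For MYD88 and S100A8 r was only slightly smaller than with all pigs, with an unadjusted permutation p of 0.0420 for each.

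The correlations were also computed within each number suffix, and the difference between the suffixes was not tested. Among the 10 pigs with the suffix 15, r was 0.754 with TLR2, 0.696 with MYD88, 0.628 with TLR4, 0.771 with S100A8, 0.271 with LY96 and 0.370 with LBP. Among the 6 with the suffix 14 it was 0.411, 0.244, 0.189, 0.006 and −0.008 for the same genes up to LY96, with adjusted exact permutation p of 0.990 for each, and 0.726 for LBP (adjusted exact permutation p = 0.575). Among the 6 Si-NEC pigs, CD14 and S100A8 had an r of 0.943 (exact permutation p = 0.00417, adjusted 0.0250), and CD14 and TLR2 an r of 0.872 (exact permutation p = 0.0222, adjusted 0.0667).

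The genes whose pattern over the 16 pigs was most like that of a member were sought among 9068 named entries, as a description. For CD14 they were NFKBIA (r = 0.861), PLEK (0.857), a substrate of protein kinase C in blood cells, and SRGN (0.838), a proteoglycan of secretory granules. For TLR2 they were CCR1 (0.901), a chemokine receptor, HIF1A (0.897), the oxygen-sensing transcription factor, and RCAN1 (0.884), a calcineurin regulator. TLR4 was most like TPM4 (0.892), RBBP9 (0.876) and TLR2 (0.873). MYD88 was most like ADGRE5 (0.881), an adhesion receptor of leukocytes, TPM4 (0.875) and ARHGAP30 (0.840). TLR3 was most like TENT5A (0.843), CASP1 (0.811), the inflammasome protease, and ABCC3 (0.806). All pigs share the group structure and the extreme Si-NEC pigs, which enter each of these values.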

How the data were processed

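Left hippocampi of 16 preterm pigs were sequenced by the study with paired-end reads. The authors trimmed and aligned the reads (TopHat2 2.1.1) and estimated FPKM with Cufflinks 2.2.1 on Sscrofa10.2, as the submitters' processing notes list them, and deposited 1 table of FPKM per gene entry and pig. That table holds no read counts, so depth is unknown and count tests were not used. No genome of that build was used here, so no coordinates or sequences are given.

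Of 24594 entries, 1779 identical repeats were dropped and 22815 kept, of which 5837 were at 0 in all pigs. Identifiers were paired with symbols through a gene name table. The 13590 entries averaging 0.5 FPKM or more over the pigs were analysed as log2(FPKM + 0.5), so fold changes of low genes are understated. Each pair of groups was fitted alone in limma 3.58.1 (R 4.3.3) with an intensity trend, p-values adjusted by Benjamini-Hochberg and called at 0.2, as in the study. Single members were also compared by exact two-sided permutation tests, and correlations by 100000 permutations (exact for 6 pigs), in Python 3.11.15 with scipy 1.17.1. The fits were checked on simulated data.

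Named were all 10 members; from the pathway lists, in each comparison, genes with an unadjusted p under 0.05, at most 8; CXCL8, CCL2, NFKBIA, S100A8 and S100A9; and the 3 genes most like CD14, TLR4, TLR2, TLR3 and MYD88. IL6, TLR1, TLR5 and TLR9, and CSF3R were named after their values were seen. Members and lists were chosen with earlier results of these data known. The comparison relative to microglial markers, the exact tests within sexes, the correlations within suffixes and the summary of rescaled sex terms were added after seeing the data. Alternatives covered pseudocount, filter, rescaling, covariates, moderation, weights, left-out pigs and subsets.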

Additional observations from a re-analysis of the deposited data

Results flagged for a closer look

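TLR7 in Si-NEC pig 223-15, at 0.667 FPKM, lay farther from the others of its group than Dixon's 95% criterion allows, while the other 5 Si-NEC pigs were at 0.0514 to 0.272. It was the only such value among 27 groups of values checked, and chance gives about 1 such value in 20 groups.

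TLR7 also moved in opposite directions in the labelled sexes. In Si-NEC the 3 females (0.271 to 0.667 FPKM) lay above both No NEC females (0.152 and 0.252), and the 3 males (0.0514 to 0.211) lay under the 3 No NEC males (0.266 to 0.439). In Co-NEC the 2 females (0.328 and 0.465) lay above the No NEC females and the 3 males (0.188 to 0.257) under the No NEC males. The effect in males minus that in females was −0.74 on the log2 scale for Si-NEC (exact permutation of the group labels within each sex, two-sided p = 0.020) and −0.58 for Co-NEC (p = 0.0167), both against the same No NEC pigs. Among entries above 0, 2.97% and 1.64% showed such a pattern without overlap. The permutation tests were 2 of 27 such tests, chosen after the values were seen, at levels under 0.7 FPKM. They assume no group difference in either sex, so they are not exact tests of equal differences in both sexes.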

How the results depend on the processing

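No paired analysis was possible because the labels give the groups no shared replicate numbers, and the block by replicate was not fitted.

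No member passed an adjusted p of 0.2 for Si-NEC or Co-NEC against No NEC under any alternative run. For Si-NEC against Co-NEC the number called was 0, except 1 (TLR3) in males alone. CD14, TLR3 and MYD88 kept their sign under all alternatives run, both in Co-NEC against No NEC and in Si-NEC against Co-NEC. For the reversals below the cause was not tested.

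For Si-NEC against No NEC, array weights gave −0.019 for MYD88, 0.013 for TLR3, −0.082 for LBP, −0.024 for CD14 and −0.064 for IRAK1. Without pigs 223-15 and 230-15 they were −0.017 for MYD88, 0.0089 for TLR3, −0.087 for LBP and −0.062 for IRAK1. In pigs with the suffix 15 TLR3 was 0.15, and in males TLR4 was −0.36, MYD88 −0.20, CD14 −0.50, LY96 −0.44 and TLR2 −0.39. For Co-NEC against No NEC, array weights gave 0.021 for TLR4 and 0.025 for LY96, leaving out those pigs 0.049 for TLR4, the suffix 15 alone 0.25 for TLR4, 0.019 for LY96 and 0.13 for IRAK1, and males alone 0.24 for LBP. For Si-NEC against Co-NEC, array weights gave −0.084 for LBP, the suffix 15 alone −0.065 for IRAK1, and males alone −0.042 for TLR4, −0.23 for LBP, −0.085 for LY96 and −0.43 for TLR2. The sex interaction for Si-NEC against No NEC was 0.048 for LBP after rescaling, and for IRAK1 −0.045 with array weights and −0.074 without pigs 223-15 and 230-15. For Co-NEC against No NEC it was 0.29 for TLR2 with array weights. The correlations with CD14 without its 2 extreme pigs were 0.445 for TLR4, 0.335 for TLR2, 0.552 for MYD88, 0.549 for S100A8 and −0.115 for LBP.

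Leaving out each pig in turn reversed members near 0. The ranges for Si-NEC against No NEC were −0.15 to 0.31 for CD14, −0.093 to 0.091 for IRAK1, −0.035 to 0.17 for LBP, −0.061 to 0.42 for LY96, −0.036 to 0.10 for MYD88 and −0.25 to 0.099 for TLR3. For Co-NEC against No NEC they were −0.13 to 0.064 for IRAK1, −0.12 to 0.089 for LBP, −0.047 to 0.23 for TLR2 and −0.20 to 0.12 for TLR4, and for Si-NEC against Co-NEC −0.051 to 0.15 for IRAK1 and −0.029 to 0.20 for LBP. The interaction ranged from −0.39 to 0.044 for MYD88 and −0.37 to 0.26 for TLR2 (Co-NEC against No NEC), and from −0.061 to 0.41 for IRAK1 and −0.30 to 0.15 for LBP (Si-NEC against No NEC). Over all entries, array weights raised the calls for Si-NEC against Co-NEC from 2 to 201, with no member among them.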

Other observations

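CASP1, the inflammasome protease whose level followed TLR3, was 5.11 FPKM in Si-NEC pig 246-15 and at most 3.18 in the other pigs. TNFAIP3, an inhibitor of NF-kB signalling, was 5.99 FPKM in pig 246-15 and between 0.897 and 1.55 in the other 15 pigs. UNC93B1, which carries Toll-like receptors to endosomes, was 9.07 FPKM in pig 246-15 and at most 5.55 in the others. These values belong to 1 pig and were noted after they were seen.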
